A study of Mus musculus with 10 samples.

Results

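The genes described here are 10 genes of the piRNA pathway: the PIWI protein genes Piwil1, Piwil2 and Piwil4, and Mov10l1, Asz1, Pld6, Gtsf1, Fkbp6, Henmt1 and Mybl1, which serve the production of piRNAs and contain no Tudor domain. They were chosen by name, not by their methylation, from 49939 genes of the reference table, though with earlier results of these data known. For each gene, every cytosine in a CpG with at least 5 reads in both libraries was taken from the gene span and 2 kb on either side, which gave 1402 cytosines in 926 CpGs, of 6745376 cytosines in 4489220 CpGs in the series. The cells were spermatogonia from testes of 6-day-old mouse pups of the LT-11B6 line, which carries an Id4-eGfp transgene on the C57BL/6 background. All cells of both groups expressed this reporter, which labels undifferentiated spermatogonia rich in stem cells. TSPAN8, a tetraspanin of the cell surface, was stained with an antibody, and the most strongly stained cells formed the TSPAN8-high fraction and the most weakly positive ones the TSPAN8-low fraction. DNA of 5 pooled sorts (300 ng) per fraction was read by reduced-representation bisulfite sequencing (RRBS), in which restriction fragments are converted so that unmethylated cytosines read as thymine. Each fraction gave 1 library, so no difference below has a replicate check: the tests compare these libraries, not the conditions. The 8 chromatin samples of the series were not analysed here.

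PIWI proteins are Argonaute-family proteins of the germ line that bind piRNAs, short RNAs cut from long precursors, and use them to find and silence transposons. In the fetal male germ line PIWIL2 (MILI) and PIWIL4 (MIWI2) direct DNA methylation to transposons, while PIWIL1 (MIWI) acts from meiosis onward. The biogenesis factors work largely at the outer mitochondrial membrane and in the nuage beside it, and mutants of most of them are sterile in males. CpG-rich promoters of active or poised genes are usually unmethylated, whereas the bodies of genes are usually methylated.

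The 1402 cytosines were covered by 17247 reads (TSPAN8-high) and 16931 reads (TSPAN8-low). Depth was that of the whole series, the median cytosine having 10 reads in either library. The deepest had 51 and 56 reads. Averaged over cytosines, the 10 genes were methylated at 77.6% in both libraries, and all cytosines of the series at 74.3% and 74.4%. The labels were checked on imprinted promoters that somatic cells methylate on the maternal copy and male germ cells do not. Peg3, Peg10, Plagl1, Kcnq1ot1 and Mest lay between 0.290% and 13.2% in TSPAN8-high and between 0.446% and 13.4% in TSPAN8-low. Peg10, the lowest in both, has no start in the reference. Its window lay at the gene end with more measured CpGs, which may not be the promoter. The window of Snrpn, at its most upstream annotated start, held 3 CpGs and read 85.7% and 80.4%. Whether that window covers the imprinted region was not tested. Kcnq1ot1 (2.97% against 8.28%, adjusted p = 0.0142) and Plagl1 (2.78% against 1.04%, adjusted p = 0.0273) passed the adjusted p of Fisher's exact test between the libraries. Both differences were below 10 points. The paternally methylated region 2 to 4 kb above the upper end of H19 read 68 of 68 methylated in TSPAN8-high and 107 of 109 in TSPAN8-low. Promoters of the germ cell genes Dazl, Ddx4, Mael, Sycp3 and Tex101 were between 1.16% and 12.3% in TSPAN8-high and between 0.903% and 15.6% in TSPAN8-low. Of the start windows of 13 marker genes of other testis cells, 11 could be tested. None was called by the rule for promoter windows given below, which called 0.851% of all windows. The reference gives no start for Sox9, Amh, Gata4, Wt1, Cyp17a1, Star, Myh11, Pecam1 and Cdh5. Their windows lay at the gene end with more measured CpGs, which may not be the promoter. Of the 4 Sertoli cell genes, Sox9, Amh and Wt1 were below 2% in both libraries in these windows. Gata4 was at 87.0% and 92.2%. Of the Leydig cell genes, Cyp17a1 read 96.3% and 92.5%, Star 93.8% and 96.0%, and Insl3 16.5% and 25.8%. The peritubular myoid cell genes Acta2 and Myh11 read 32.5% and 29.3%, and 1.54% and 0% (up to 1.29% allowed). Pecam1 and Cdh5 of endothelial cells read 94.0% and 99.0%, and 96.7% and 89.7%. Ptprc and Cd68 of leukocytes read 92.6% and 95.8%, and 85.4% and 93.5%. Cdh5 and Cd68 were the untested ones, with 3 CpGs each.

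The deposited table covers some starts densely and others not at all, and the reference promoters show where. RefSeq promoter entries (GRCm38.p6, 250 bases before to 50 after an annotated start) were found for 8 of the 10 genes, Piwil2 and Mybl1 being without one. Here are 5 of them, 4 with measured CpGs and 1 with none, written 5′ to 3′ on the gene's strand with the CpGs measured in both libraries in capitals.
Asz1: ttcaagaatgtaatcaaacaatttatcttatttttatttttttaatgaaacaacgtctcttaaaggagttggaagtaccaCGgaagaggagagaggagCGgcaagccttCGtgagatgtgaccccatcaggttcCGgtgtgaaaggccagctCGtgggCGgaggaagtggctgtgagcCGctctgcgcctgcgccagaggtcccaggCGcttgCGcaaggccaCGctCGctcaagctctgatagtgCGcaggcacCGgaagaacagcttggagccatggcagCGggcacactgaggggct
Pld6: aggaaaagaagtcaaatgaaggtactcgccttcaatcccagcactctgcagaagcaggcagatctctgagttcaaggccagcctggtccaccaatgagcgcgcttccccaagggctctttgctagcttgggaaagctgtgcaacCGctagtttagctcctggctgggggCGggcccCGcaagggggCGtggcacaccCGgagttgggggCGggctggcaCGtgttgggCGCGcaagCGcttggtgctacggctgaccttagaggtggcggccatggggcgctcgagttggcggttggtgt
Henmt1: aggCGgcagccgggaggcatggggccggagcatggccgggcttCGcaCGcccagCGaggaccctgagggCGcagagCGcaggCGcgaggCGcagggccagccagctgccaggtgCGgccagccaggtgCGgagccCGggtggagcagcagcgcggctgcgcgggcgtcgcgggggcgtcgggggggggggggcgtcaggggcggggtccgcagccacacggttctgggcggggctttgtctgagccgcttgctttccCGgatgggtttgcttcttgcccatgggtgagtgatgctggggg
Gtsf1: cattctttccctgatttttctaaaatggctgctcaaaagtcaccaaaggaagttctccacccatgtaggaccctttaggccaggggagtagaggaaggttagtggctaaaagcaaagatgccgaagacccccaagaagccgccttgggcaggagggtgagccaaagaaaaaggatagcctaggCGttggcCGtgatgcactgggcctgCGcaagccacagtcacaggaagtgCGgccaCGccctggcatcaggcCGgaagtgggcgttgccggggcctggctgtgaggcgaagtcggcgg
Piwil1: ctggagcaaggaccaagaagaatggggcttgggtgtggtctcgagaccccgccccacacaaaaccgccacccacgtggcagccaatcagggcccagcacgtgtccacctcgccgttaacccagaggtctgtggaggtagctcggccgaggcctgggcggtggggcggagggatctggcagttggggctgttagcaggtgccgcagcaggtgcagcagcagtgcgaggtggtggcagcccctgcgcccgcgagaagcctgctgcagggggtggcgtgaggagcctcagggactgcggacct

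The Asz1 promoter (chr6:18109012-18109311, minus strand) had 14 of its 17 CpGs measured, with 3 methylated of 385 reads in TSPAN8-high and 3 of 270 in TSPAN8-low. In the Pld6 promoter (chr11:59787608-59787907, minus strand) 10 of 18 CpGs were measured, with 1 methylated of 135 reads and 8 of 104. In the Henmt1 promoter (chr3:108940307-108940606, plus strand) 12 of 31 CpGs were measured, with 1 methylated of 126 reads and 1 of 90. The Gtsf1 promoter (chr15:103430378-103430677, minus strand) had 6 of 13 CpGs measured, and no methylated read among 115 in TSPAN8-high or 96 in TSPAN8-low, which allows a level of up to 2.61% and 3.13%. None of the 18 CpGs of the Piwil1 promoter (chr5:128735996-128736295, plus strand) was measured, nor any of the 20 of Mov10l1 or the 11 of the upstream Piwil4 entry. The fragments were cut with MspI, BfaI and MseI, whose sites are CCGG, CTAG and TTAA. CCGG occurred in 52.8% of all 32851 promoter entries, and a CpG was measured in 83.1% of these against 27.5% of entries without it. The Piwil1 and Mov10l1 entries hold no CCGG, but the upstream Piwil4 entry holds 1, and the Piwil1 entry holds 1 TTAA. The core of the site bound by MYB proteins, AACNG on either strand, was in 10 of the 11 entries of these genes, and in 80.3% of all entries of this length.

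The comparison asked whether the fractions, sorted for different amounts of a surface protein, differ in methylation at the genes of this pathway. Where a gene start could be tested, it was little methylated in both, and no difference was called. The start window was set as 1 kb either side of the most upstream annotated start. Where the reference gives no start, it was set at the gene end with more measured CpGs. This was so for Mybl1 and Piwil2, and for genes without a start among all windows. Of the 10 genes, 7, Mybl1 among them, had the 5 CpGs needed for a test in this window. All 7 were below 20% in both libraries and 5 were below 5%, against 62.8% and 48.5% of all 27846 windows tested. The shares of all windows were taken over genes of every type in the reference, whereas the 10 genes are all protein-coding. No window of the 7 was called by a two-sided Fisher's exact test on pooled reads at an adjusted p below 0.05 with a difference of at least 10 percentage points, a rule that called 0.851% of all windows, and none passed the adjusted p at any size of difference (3.33% of all windows). The median difference of the 7, high minus low, was -0.605 percentage points, and that of all windows was -0.0256.

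**Figure D1:**
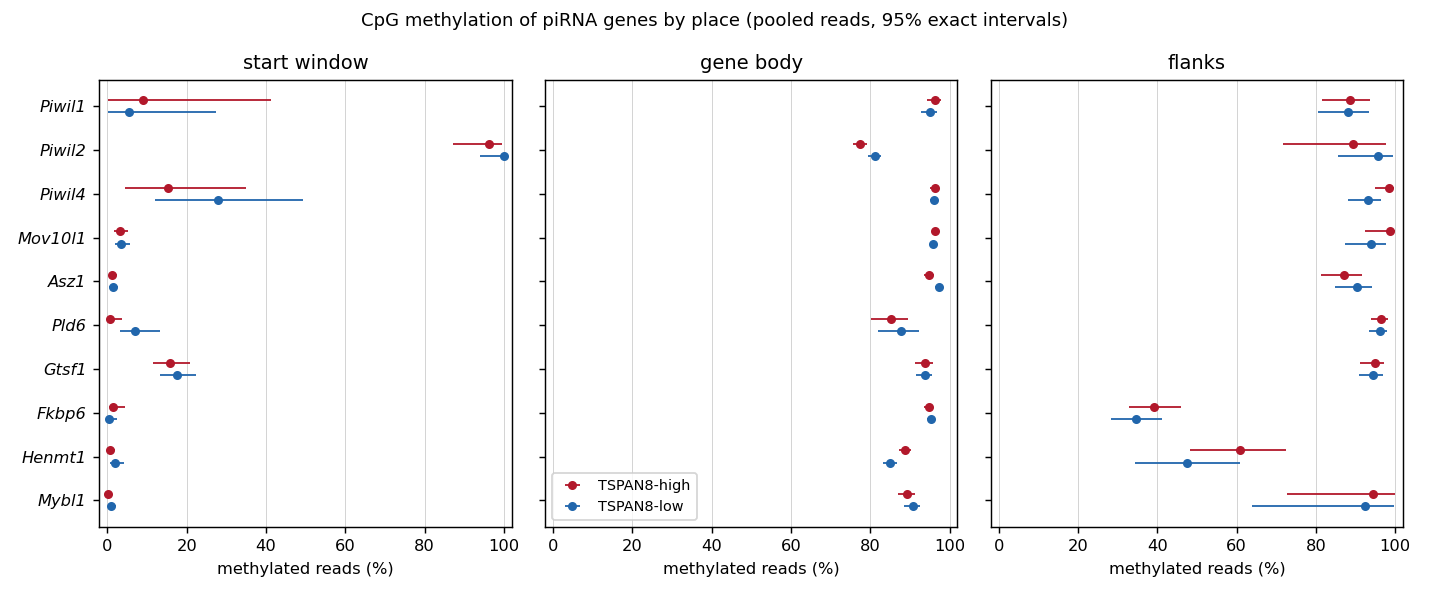
Methylation level in percent (methylated reads over all reads) of each gene in the start window, the gene body and the flanks, in TSPAN8-high and TSPAN8-low, 1 library each; bars are exact 95% intervals of counting error. Where the reference gives no start, the window lies at a gene end, the lower one for Piwil2 and the upper one for Mybl1. Start windows lie near 0 wherever at least 5 CpGs were measured, Gtsf1 at 15.7% and 17.5% being the highest of these, and the gene bodies lie between 77.4% and 97.4%.

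Among the PIWI genes, the starts of Piwil1 and Piwil4 were measured at few CpGs, and the reference gives no start for Piwil2. Piwil1 (chromosome 5, 128736071 to 128755474, plus strand) encodes MIWI, the PIWI protein of meiotic cells and round spermatids. The only CpG measured in its start window had 1 methylated of 11 reads in TSPAN8-high and 1 of 18 in TSPAN8-low. Its body was methylated at 96.4% (exact 95% interval 94.4 to 97.8) in TSPAN8-high and 95.1% (92.9 to 96.8) in TSPAN8-low. A group of 5 CpGs 2025 to 2105 bp before the start, chosen after its values were seen, had 66 methylated of 77 reads and 61 of 72. These CpGs were at 85.7% and 84.7%, so the methylated flank began within about 2 kb of the start in both libraries.

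Piwil4 (chromosome 9, 14701776 to 14740672, minus strand) encodes MIWI2, the nuclear PIWI protein of fetal germ cells. Its start window held 3 CpGs, with 4 methylated of 26 reads in TSPAN8-high, 15.4%, and 7 of 25 in TSPAN8-low, 28.0%. The difference of -12.6 percentage points had a 95% Newcombe interval of -34.3 to 10.1, so neither its direction nor its size could be resolved at this depth. The 83 CpGs of the body were at 96.3% and 96.2%, a difference of 0.105 (interval -1.30 to 1.52). From 1290 to 1774 bp before the start, 2 CpGs had 60 methylated of 62 reads and 74 of 78. These 2 were chosen after their values were seen.

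Piwil2 (chromosome 14, 70372477 to 70436898) encodes MILI, the PIWI protein that is present from fetal germ cells to spermatids. The reference gives no start for it, and both of its ends were methylated where they were measured. The lower end had 52 methylated of 54 reads in TSPAN8-high and all 60 in TSPAN8-low, at 2 CpGs, and the upper end 11 of 13 and 19 of 20, at 1 CpG. The unmethylated CpGs of this gene lay inside it. Between 70428847 and 70429755, 7144 to 8051 bp below the upper end and beside the small nuclear RNA gene Gm24890 (70428415 to 70428597), 18 CpGs had 13 methylated of 418 reads in TSPAN8-high and 6 of 353 in TSPAN8-low. These levels, 3.11% (exact 95% interval 1.67 to 5.26) and 1.70% (0.626 to 3.66), differed by 1.41 points with a Newcombe interval of -0.931 to 3.74. The stretch was chosen after its values were seen, and whether it holds a start of Piwil2 was not tested.

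**Figure D2:**
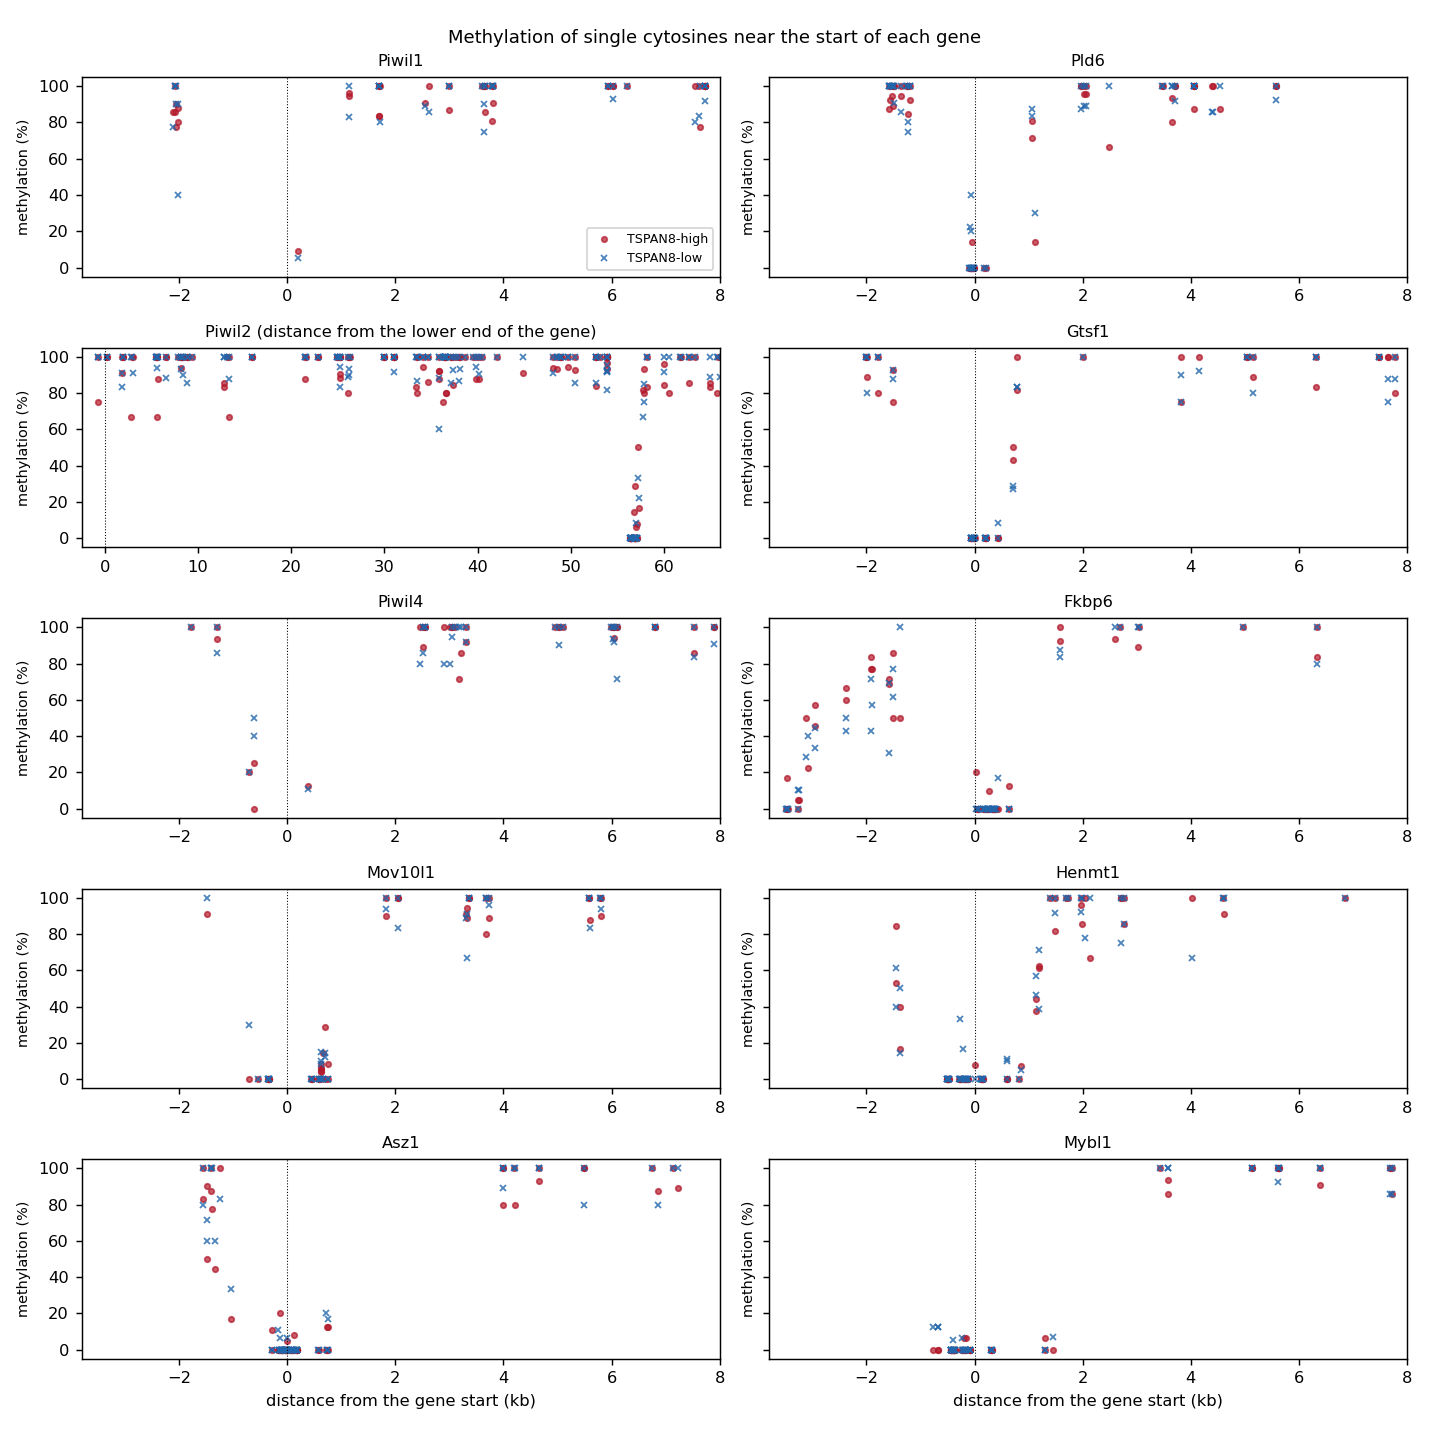
Methylation level in percent of every measured cytosine near the start against distance from the gene start in kb, in TSPAN8-high (red circles) and TSPAN8-low (blue crosses). Distance is taken from the lower end of the gene for Piwil2 and from the upper end for Mybl1. Both libraries lie low at the starts that were measured and high in the gene bodies, and Piwil2 shows its trough inside the gene.

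Mov10l1 (chromosome 15, 88982891 to 89055152, plus strand) encodes the RNA helicase that binds piRNA precursors and feeds them into processing. The 14 CpGs of its start window had 13 methylated of 419 reads in TSPAN8-high and 15 of 426 in TSPAN8-low, which is 3.10% and 3.52% (difference -0.419, interval -2.97 to 2.12; Fisher's exact test, adjusted p = 1). The neighbouring gene Mlc1, on the other strand, begins at 88982693, so that this window covers both starts. The 127 CpGs of the body, the most in any of the 10 genes, were at 96.4% and 95.9%. The libraries overlapped in interval at each of these places.

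Pld6 (chromosome 11, 59783893 to 59787657, minus strand) encodes the mitochondrial nuclease, a relative of Zucchini of the fly, that cuts precursors into piRNA intermediates. It had the largest difference of the 7 start windows: 1 methylated of 147 reads in TSPAN8-high, 0.680%, against 8 of 114 in TSPAN8-low, 7.02%. The difference was -6.34 points with an interval of -12.6 to -1.74, and it did not pass adjustment over all windows (Fisher's exact test, p = 0.0116, adjusted p = 0.150). All 8 methylated counts of TSPAN8-low lay at 3 CpGs within 19 bp, 63 to 80 bp upstream of the start, and all on the minus strand. There TSPAN8-low had 8 methylated of 29 counts and TSPAN8-high none of 59. The plus strand of the same CpGs had none of 27 and none of 30. The 3 CpGs lie in the Pld6 promoter printed above, they were chosen after their values were seen, and reads on 1 strand that span all 3 were counted at each. When each cytosine was compared with itself by a Cochran-Mantel-Haenszel test, an alternative added after seeing the data, the window differed by -7.73 points (95% interval -12.1 to -3.41) with an adjusted p of 0.0231, the only one of the 7 windows under 0.05 where 3.35% of all windows were. A test of this kind rests on the same 8 methylated counts, which may come from fewer reads.

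Asz1 (chromosome 6, 18050964 to 18109061, minus strand) encodes GASZ, a scaffold of the nuage between mitochondria. At the 28 CpGs of its start window, 9 of 712 reads were methylated in TSPAN8-high and 7 of 534 in the other library. These levels of 1.26% and 1.31% differed by -0.0468 points with an interval of -1.54 to 1.26 (Fisher's exact test, adjusted p = 1). The low stretch ended within 1.6 kb outward. There, 7 CpGs from 1032 to 1551 bp before the start had 84 methylated of 107 reads and 93 of 110. This group was chosen after its values were seen. The body was at 94.8% (interval 93.5 to 96.0) in TSPAN8-high and 97.4% (96.4 to 98.2) in TSPAN8-low, a difference of -2.59 (-4.14 to -1.09).

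Gtsf1 (chromosome 15, 103402458 to 103430445, minus strand) encodes a small zinc finger protein that assists target cutting by PIWI proteins. Its window read 15.7% in TSPAN8-high (39 of 248 reads) and 17.5% in TSPAN8-low (52 of 297), with an adjusted p of 0.952 by Fisher's exact test. Its CpGs are given in 2 groups chosen after their values were seen. The 12 CpGs near the start, including those printed above, had none of 189 reads methylated and 2 of 213, and the 2 CpGs at the inner edge, 704 to 782 bp into the gene, had 39 of 59 and 50 of 84. The libraries overlapped in interval in both groups. The sign of the window's difference changed from -1.78 to 2.40 when each cytosine was compared with itself.

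Fkbp6 (chromosome 5, 135291704 to 135351809, minus strand) encodes a co-chaperone of HSP90 that helps load piRNAs. Its 19 CpGs at the start had 3 methylated of 198 reads and 1 of 229 (Fisher's exact test, adjusted p = 0.753). This depends on the start used: at the outer end of the gene span the window read 70.4% and 57.1%, a difference of 13.2 points (interval 0.518 to 25.3; Fisher's exact test, adjusted p = 0.315), and with 2 kb either side of the start the difference was 8.09. Its flanks were the least methylated of the set, 39.3% and 34.5%. In them, 8 CpGs 3082 to 3493 bp before the start had 8 methylated of 106 reads and 10 of 109. These CpGs lay inside the neighbouring gene Trim50 (135351884 to 135367890) and were chosen after their values were seen. The body stayed at 94.7% and 95.3%.

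Henmt1 (chromosome 3, 108939454 to 108979885, plus strand) encodes the methyltransferase that protects the ends of finished piRNAs. Its 30 CpGs at the start had 2 methylated of 357 reads in TSPAN8-high and 6 of 300 in TSPAN8-low (difference -1.44, interval -3.77 to 0.376; Fisher's exact test, adjusted p = 0.534). Its body was higher in TSPAN8-high, 88.8% against 85.0%, a pooled difference of 3.74 points with an interval of 1.47 to 6.02. The body had no adjusted test of its own. With equal weights in both libraries the difference was 2.57, and averaged over cytosines 1.76. Part of it lay in 10 CpGs between 108977372 and 108977668, where Henmt1 overlaps Fam102b of the other strand. There 124 of 240 reads were methylated in TSPAN8-high, 51.7%, and 113 of 268 in TSPAN8-low, 42.2%. These CpGs held 10.9% of the reads of the gene span in TSPAN8-high and 13.5% in TSPAN8-low. Within them the first 3 CpGs were at 65.5% and 69.4%, the next 3 at 54.7% and 26.1%, and the last 4 at 42.7% and 30.7%. This partly methylated stretch was chosen after its values were seen, and the 1-kb tile that holds it, at 55.4% and 46.3%, had an adjusted p of 0.491 by Fisher's exact test. A CpG 1457 bp before the start had 22 of 26 reads methylated in TSPAN8-high and 8 of 20 in TSPAN8-low on the plus strand, and 17 of 32 and 16 of 26 on the minus strand. The 2 strands of that CpG thus pointed in opposite directions, and the CpG was chosen after its values were seen.

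**Figure D3:**
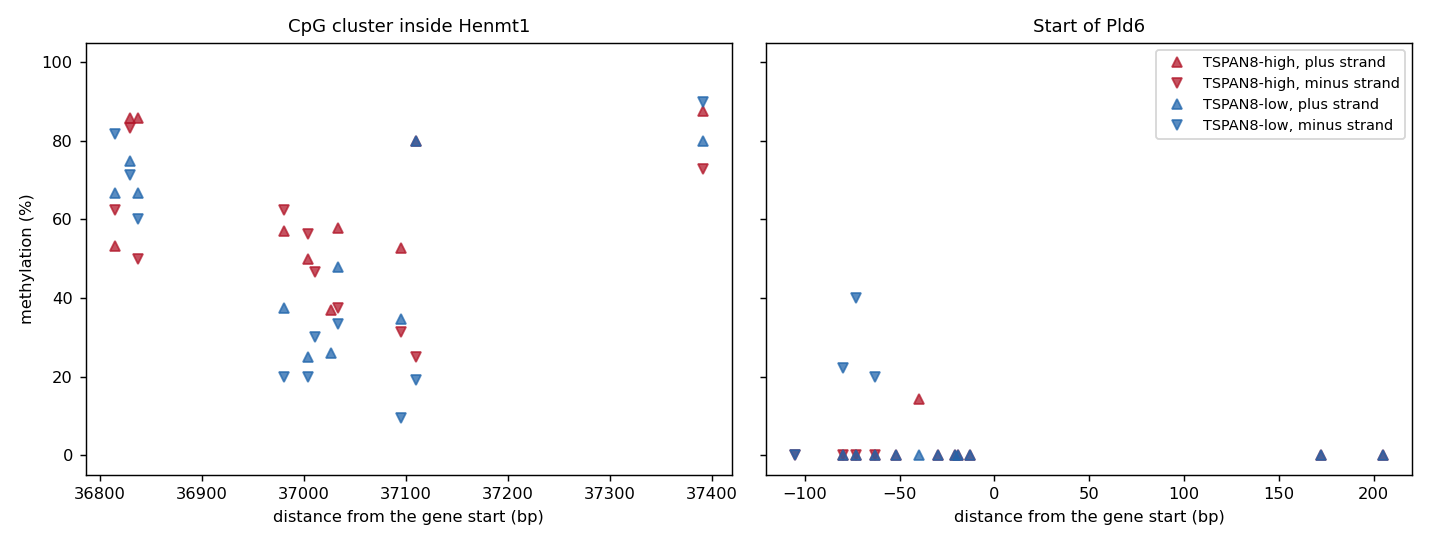
Methylation level in percent of single cytosines by strand (upward triangles plus, downward minus) against distance from the gene start, for the partly methylated stretch of Henmt1 and the start of Pld6, in TSPAN8-high and TSPAN8-low. At Pld6 the cytosines above 0 in TSPAN8-low are 3 minus-strand neighbours, and at Henmt1 the libraries part at the middle CpGs, 54.7% against 26.1%.

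Mybl1 (chromosome 1, 9667407 to 9700439) encodes A-MYB, the transcription factor that drives pachytene piRNA precursors and several of the genes above. The reference gives no start for it, and the window was set at its CpG-richer upper end. There 25 CpGs had 2 methylated of 690 reads in TSPAN8-high, 0.290% (exact 95% interval 0.0351 to 1.04), and 5 of 559 in TSPAN8-low, 0.894% (0.291 to 2.07), with an adjusted p of 0.661 by Fisher's exact test. The body was at 89.3% and 90.7%, a difference of -1.39 (interval -4.15 to 1.36).

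Over whole genes with their flanks, Fisher's exact test on pooled reads put 3 of the 10 under an adjusted p of 0.05, each with the lower level in TSPAN8-high. The differences were below the 10 points that a call required, a rule met by 1.47% of all 41490 genes tested. At any size of difference 7.58% of all genes were lower and 3.51% higher, so the share of 3 in 10 stands beside a background in which lower was also the more frequent direction. Asz1 read 63.2% against 71.0%, a difference of -7.74 points (interval -10.6 to -4.88, adjusted p = 1.44e-05 by Fisher's exact test). Mybl1 read 51.7% against 56.9%, -5.16 points (-8.64 to -1.66, adjusted p = 0.0399 by Fisher's exact test). Piwil2 read 78.0% against 81.9%, -3.89 points (-6.22 to -1.57, adjusted p = 0.0158 by Fisher's exact test).

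In these 3 genes the reads lay in different places in the libraries. Of the Asz1 reads, 33.0% of those of TSPAN8-high fell on the unmethylated start window, against 26.8% of those of TSPAN8-low. For Mybl1 these shares were 42.3% and 37.6%. In Piwil2 the unmethylated stretch inside the gene took 18.6% and 15.4%. With each cytosine compared with itself by the Cochran-Mantel-Haenszel test, Asz1 differed by -1.74 points (interval -2.87 to -0.619), with an adjusted p of 0.0708. Mybl1 differed by -0.804 (-1.96 to 0.350) with an adjusted p of 0.518, and Piwil2 by -0.421 (-1.58 to 0.737) with an adjusted p of 0.776. None of the 10 genes was then under an adjusted p of 0.05, against 2.48% of all genes. Henmt1 differed by 2.31 points the other way (0.662 to 3.96) with an adjusted p of 0.113. Over all genes, 4603 passed with pooled reads and 1030 with each cytosine a stratum, and 520 passed both with the same sign.

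**Figure D4:**
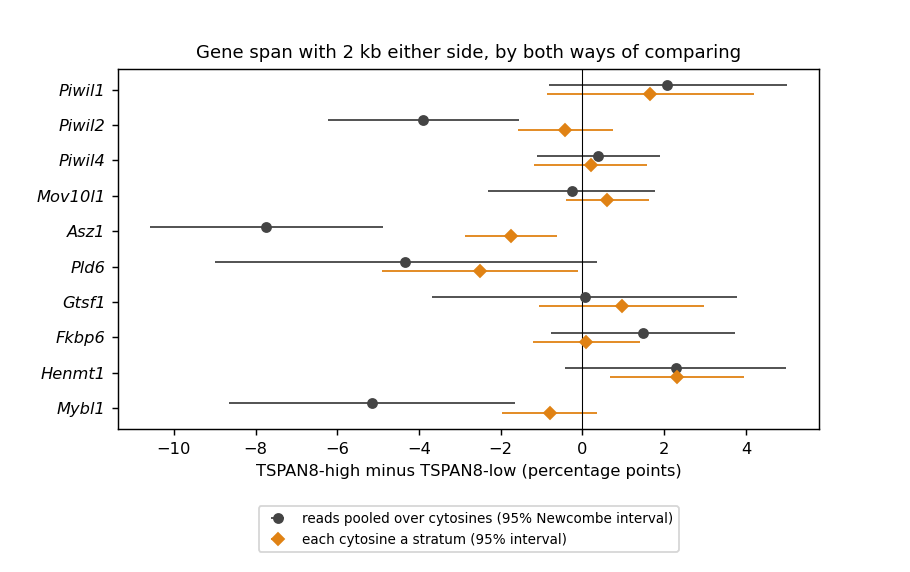
Difference in methylation, TSPAN8-high minus TSPAN8-low, in percentage points, over each gene with 2 kb either side: reads pooled (grey, 95% Newcombe interval) and each cytosine a stratum (orange diamonds, 95% interval). The pooled values of Asz1, Mybl1 and Piwil2, -7.74, -5.16 and -3.89, move to -1.74, -0.804 and -0.421.

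In finer pieces no member was called. The spans held 137 tiles of 1 kb with at least 3 CpGs, of which 107 were above 90% and 12 below 10% in both libraries. None was called, where 0.268% of all 585220 tiles were, and the lowest adjusted p, 0.124 by Fisher's exact test, belonged to a tile inside Fkbp6 at 91.0% against 100%. The tile with the largest difference was inside Gtsf1, with 26 of 27 reads methylated in TSPAN8-high and 18 of 23 in TSPAN8-low (adjusted p = 0.674 by Fisher's exact test). A second tile inside Gtsf1, the next in size, pointed the other way, with 44 of 52 reads and 86 of 88 (adjusted p = 0.264 by Fisher's exact test). They were followed by a tile at the upper end of Mybl1, with none of 15 and 3 of 24, and one in the flank of Fkbp6, at 72.8% and 61.5%. In Piwil2, Henmt1, Piwil1, Piwil4, Asz1, Mov10l1 and Pld6 the tile of largest difference in each differed by -9.64 to 9.09 points, and the adjusted p of all 10 by Fisher's exact test lay between 0.351 and 0.905.

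At single cytosines the depth of 10 reads allowed little. Of the 1402, 694 were above 90% and 210 below 10% in both libraries. None was called at an adjusted p below 0.05 and 20 points, where 0.00111% of all cytosines were, and the lowest adjusted p was 1. The p-value of the authors' deposited table was below 0.05 at 10 of them, 0.713%, against 1.45% of all cytosines. Of these 10, 7 were lower in TSPAN8-high. Of the 97990 cytosines below 0.05 in the series, 50714 were lower, which is 0.752% of all cytosines. The lowest of the 10 p-values belonged to the Henmt1 CpG before the start. In Piwil2 a minus-strand cytosine had 16 of 20 reads methylated in TSPAN8-high and all 50 in TSPAN8-low, while its partner on the plus strand had all 18 and 24 of 27.

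Cytosines with 10 or more measured CpGs within 200 bp had 1 methylated of 318 reads in TSPAN8-high and 1 of 225 in TSPAN8-low at Asz1, 2 of 160 and 1 of 148 at Mybl1, and none of 136 and 3 of 96 at Henmt1. At Fkbp6 they had 1 of 16 and none of 14. At Pld6 they had 1 of 135 and 8 of 104, a difference of -6.95 points (interval -13.7 to -1.94). It rests on the 8 methylated counts described above, and its interval was the only one of the 5 without 0. Piwil1, Piwil2, Piwil4, Mov10l1 and Gtsf1 had no site this dense. Cytosines with at most 2 measured CpGs within 200 bp had 1079 of 1142 and 1023 of 1089 methylated reads at Piwil4 and 1414 of 1496 and 1510 of 1575 at Piwil2. In this class the pooled intervals left out 0 only at Asz1 (-3.88 points, -6.06 to -1.71) and Mybl1 (-3.63, -7.09 to -0.148). With 3 to 9 CpGs they left out 0 only at Asz1 (-7.82, -13.5 to -2.09), Piwil2 (-6.18, -11.2 to -1.07) and Fkbp6 (8.11, 1.91 to 14.2). With equal weights in both libraries these differences were, in the same order, -2.54, -1.18, -0.916, 1.18 and -0.415.

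Of 19 other piRNA pathway genes, among them the Tudor domain family and the factors that bring DNA methylation to transposons, 18 had a testable start window. Both libraries were below 20% at 14 of them (77.8%) and below 5% at 8 (44.4%), against 62.8% and 48.5% of all windows tested. None was called at 10 points, a rule that called 0.851% of all windows. At any size 1 passed, higher in TSPAN8-high: Tex15, a nuclear partner of MIWI2, at 3.05% against 0.556% (Fisher's exact test, adjusted p = 0.0202; 1.57% of all windows passed and were higher). It was named after its value was seen. Its difference with each cytosine a stratum was 3.10 points (interval 1.76 to 4.43). The median difference of the 18 was 0.619 points. Tdrd6 (96.2% and 95.5%) and Morc1 (96.3% and 94.6%) had the highest levels, and Exd1 (1.39% and 0.874%) and Ddx4 (2.07% and 0.903%) the lowest over both libraries. For Tdrd6, Morc1, Tex15, Rnf17, Pnldc1 and Spocd1 the reference gives no start. Their windows lay at the gene end with more measured CpGs.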

How the data were processed

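DNA methylation was measured by RRBS in 2 libraries, TSPAN8-high and TSPAN8-low, 1 per fraction. The authors deposited 1 table with a line per cytosine. The methylation level is a fraction, deposited rounded to 2 decimals. The deposited read counts are never below 5. The deposited difference column (unit other) is TSPAN8-high minus TSPAN8-low, and the deposited p-value equalled Fisher's exact p within 0.1% at 93.6% of cytosines. The submitters' processing notes name Bowtie, SICER, mm9 and mm10 with no role; the aligner of the methylation reads is not given in the sources used here. All 151995 measured CpGs inside RefSeq promoter entries (GRCm38.p6, the assembly of mm10) read CG there, so mm10 coordinates were used.

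The number of methylated reads was taken as the rounded product of level and coverage and pooled over cytosines. Start windows (1 kb either side of the most upstream annotated start, otherwise of the gene end with more measured CpGs) and gene spans with 2 kb flanks needed 5 CpGs, and tiles of 1 kb needed 3. Two-sided Fisher's exact tests were Benjamini-Hochberg adjusted over the whole table separately for windows, spans, tiles and cytosines, with calls as stated in the report. The Cochran-Mantel-Haenszel test (large-sample, 1 stratum per cytosine) was added after seeing the data. Intervals of levels are exact Clopper-Pearson and of pooled differences Newcombe, at 95%. Reads carry no molecular identifiers and are counted at each CpG they span, so p-values are too small, and intervals and the 3 counts that a count of 0 allows cover counting error only. All 10 genes are named; of each, called tiles or cytosines, otherwise the tile of largest difference; of the other pathway genes, called ones, otherwise the 2 highest and 2 lowest. Members and lists were chosen with earlier results of these data known. The tests were tested on simulated data, with counts drawn separately at each cytosine and differences set in windows of intermediate level. Reads that span several CpGs, and differences in nearly unmethylated windows, were not covered by that check. Python 3.11.15, scipy 1.17.1, numpy 2.4.6 and pandas 2.3.3 were used.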

Additional observations from a re-analysis of the deposited data

How the results depend on the processing

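The count of called members stayed at 0 in every alternative run for start windows, tiles and single cytosines, and for gene spans except with no minimum difference, where it was 3. Counts over the whole table moved more. For start windows, 237 became 97 at 10 or more reads, 14 at 20 or more, 153 on the plus strand alone, 14 with 1 CpG per 100 bp, 104 and 487 with windows of 500 bp and 2 kb either side, and 926 with no minimum difference. For gene spans, 609 became 259 at 20 or more reads, 927 and 956 on the plus and minus strand alone, 272 with 1 CpG per 100 bp, 4603 with no minimum and 139 with each cytosine a stratum. For tiles, 1570 became 254 at 20 or more reads, 805 and 858 on the plus and minus strand alone, 64 with 1 CpG per 100 bp and 900 at a minimum of 20 points. For single cytosines, 75 became 153 and 176 at 10 and 20 or more reads, 38 and 37 on the plus and minus strand alone, 39 without the 0.1% deepest, 177 with no minimum and 155 with the strands of a CpG summed. Fewer cytosines enter at higher read minimums, on 1 strand and after thinning; otherwise the cause was not tested. The span differences of Asz1, Mybl1, Piwil2 and Piwil1 kept their sign in every alternative run, but the adjusted p of Asz1 rose to between 0.0542 and 0.596 at 20 or more reads, on the plus strand, with 1 CpG per 100 bp and with each cytosine a stratum (Fisher's exact test for all but the last). By Fisher's exact test Piwil2 was lost at 10 or more reads (-1.16, adjusted p = 0.717), at 20 or more (-0.656, 0.944), on the plus strand (-1.78, 0.611) and with 1 CpG per 100 bp (-4.45, 0.0797). By the same exact test Mybl1 was lost at 20 or more reads (-5.46, adjusted p = 0.541), on the minus strand (-3.88, 0.387), with 1 CpG per 100 bp (-2.34, 0.767) and without flanks (-3.44, 0.183). The Henmt1 span became 7.37 points higher in TSPAN8-high at 10 or more reads (adjusted p = 0.00340 by Fisher's exact test), and the Pld6 span -9.47 on the minus strand (adjusted p = 0.0472 by Fisher's exact test). Differences that no test called changed sign or came to 0 as follows. At 10 or more reads the start windows of Mov10l1 and Henmt1 gave 0.855 and 0.825 and the spans of Mov10l1, Gtsf1 and Fkbp6 gave 0.478, -0.300 and -1.48. At 20 or more reads the windows of Mybl1 and Mov10l1 gave 0 and 0.721 and the Fkbp6 span -2.81. On the plus strand the windows of Pld6, Mov10l1, Gtsf1 and Asz1 gave 1.22, 0.198, 3.78 and 0.224, and the spans of Pld6, Mov10l1 and Piwil4 gave 0.816, 1.17 and -0.124. On the minus strand the Mybl1 window gave 0 and the spans of Gtsf1 and Henmt1 gave -5.08 and -0.0469. With 1 CpG per 100 bp the windows of Gtsf1, Henmt1 and Asz1 gave 1.56, 0.761 and 1.22, and the spans of Gtsf1 and Piwil4 gave -0.149 and -0.777. Windows of 500 bp gave 0 at Mov10l1 and 0.116 at Asz1, those of 2 kb gave 0.115 at Henmt1, and either other choice of its start gave 1.43. Either other choice for Fkbp6 gave 13.2 with no change of sign, and windows of 2 kb 8.09. The unweighted mean gave 2.05 and 0.143 at the Gtsf1 and Asz1 windows and 0.169 at the Mov10l1 span, for which equal weights gave 0.621. With each cytosine a stratum the windows of Mov10l1, Gtsf1 and Asz1 gave 0.184, 2.40 and 0.228 and the Mov10l1 span 0.605. No paired analysis was possible because each fraction had 1 library, which also means that no library could be left out. A median of 10 reads per cytosine limits single sites. Piwil1 and Piwil4 had too few measured CpGs for a test at their starts. Piwil2, for which the reference gives no start, had too few at the gene end used instead.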
